A study of Homo sapiens with 24 samples.

Results

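The genes described here are those of zinc transport and zinc buffering: the 10 SLC30A genes, the 14 SLC39A genes, 8 metallothionein genes (MT1A, MT1E, MT1F, MT1G, MT1H, MT1M, MT1X and MT2A) and MTF1. They were taken by symbol, 33 genes of the 23946 listed in any of the tables. RNA was sequenced from LNCaP cells, an androgen-dependent line derived from a lymph node metastasis of prostate cancer, in 2 experiments. In the ligand experiment, cells kept in charcoal-stripped serum, which is depleted of steroids, received vehicle, 10 nM of the androgen dihydrotestosterone (DHT) for 4 h or 24 h, or 10 μM of enzalutamide, an antagonist of the androgen receptor, for 4 h or 24 h, with 2 libraries per condition. For the vehicle cells the labels give no time, and their 4 columns were combined here into 2 libraries, as described under the processing of the data. In the siRNA experiment, cells were transfected with a control siRNA (siControl) or with pooled siRNAs against GATA2 (siGATA2) and then treated for 24 h with vehicle or with enzalutamide at 25 μM, with 3 libraries per condition. All values are means over a culture of 1 cell line, so that fewer expressing cells and less RNA per cell cannot be told apart.

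Zinc enters the cytosol mainly through the SLC39A proteins (ZIP importers), which sit in the plasma membrane or in organelle membranes, and leaves it through the SLC30A proteins (ZnT exporters), which fill vesicles and organelles or pump zinc out of the cell. Metallothioneins are small cysteine-rich proteins that bind zinc and copper in the cytosol. MTF1 is the transcription factor that senses zinc and binds metal response elements in the promoters of metallothionein genes and of SLC30A1. Normal prostate epithelium is known for its high zinc content, which is lost in prostate cancer, and ZIP1 (SLC39A1), ZIP2 (SLC39A2) and ZIP3 (SLC39A3) have been studied there as uptake routes.

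The promoters of 5 members that the results turn on are given first, so that the metal response elements of the buffer genes MT2A and MT1X can be set beside SLC30A1, the exporter known as a target of MTF1, and beside SLC30A4 and SLC39A8, which were called under enzalutamide in both experiments. Each is the stretch of 250 bases upstream of the annotated start in RefSeq (build GRCh38.p14, whereas the expression files were made on hg19), printed 5′ to 3′ on the gene's own strand, with every match to the metal response element core, TGCACNC or TGCGCNC on either strand, in capitals. The windows are chr16:56608334-56608583, plus strand for MT2A, chr16:56682220-56682469, plus strand for MT1X, chr1:211579162-211579411, minus strand for SLC30A1, chr15:45522756-45523005, minus strand for SLC30A4 and chr4:102345483-102345732, minus strand for SLC39A8, the latter being the most upstream of the 3 SLC39A8 starts in that table.
MT2A: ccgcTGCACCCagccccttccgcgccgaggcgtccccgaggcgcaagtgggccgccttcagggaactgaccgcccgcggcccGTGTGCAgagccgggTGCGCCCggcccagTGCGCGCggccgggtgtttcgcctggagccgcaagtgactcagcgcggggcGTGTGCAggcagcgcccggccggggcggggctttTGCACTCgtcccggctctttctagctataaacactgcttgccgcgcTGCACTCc
MT1X: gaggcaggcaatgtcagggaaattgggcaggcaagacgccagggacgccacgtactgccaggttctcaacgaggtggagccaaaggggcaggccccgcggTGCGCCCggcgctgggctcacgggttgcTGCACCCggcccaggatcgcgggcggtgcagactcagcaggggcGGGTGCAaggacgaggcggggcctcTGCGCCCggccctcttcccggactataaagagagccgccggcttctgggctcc
SLC30A1: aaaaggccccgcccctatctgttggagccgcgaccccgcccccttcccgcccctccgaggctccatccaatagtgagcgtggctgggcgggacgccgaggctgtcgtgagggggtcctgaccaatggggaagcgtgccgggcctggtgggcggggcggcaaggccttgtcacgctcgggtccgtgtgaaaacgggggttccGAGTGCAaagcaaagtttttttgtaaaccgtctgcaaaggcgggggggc
SLC30A4: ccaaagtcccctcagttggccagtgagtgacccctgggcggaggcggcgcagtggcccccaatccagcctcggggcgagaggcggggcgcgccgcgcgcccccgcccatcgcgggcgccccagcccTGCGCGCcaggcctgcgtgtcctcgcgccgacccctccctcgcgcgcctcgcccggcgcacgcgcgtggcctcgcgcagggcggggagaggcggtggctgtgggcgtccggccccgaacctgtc
SLC39A8: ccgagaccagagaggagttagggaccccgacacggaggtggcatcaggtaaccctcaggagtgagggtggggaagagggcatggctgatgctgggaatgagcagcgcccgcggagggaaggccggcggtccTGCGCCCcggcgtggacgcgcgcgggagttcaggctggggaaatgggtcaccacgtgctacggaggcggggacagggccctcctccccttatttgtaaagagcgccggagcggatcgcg
The MT2A window held 7 matches and the MT1X window 4, while the SLC30A1, SLC30A4 and SLC39A8 windows held 1 each. The windows of the other 2 SLC39A8 starts held 0. Among the members whose windows are not printed, MT1H held 8 matches and SLC30A2 held 3, although both were close to absent in these cells. The first SLC30A3 start held 2. Of 34788 distinct windows of that length, 24.8% held at least 1 match, 0.368% at least 4 and 0.121% at least 5. A promoter was found for 25 of the 33 members (not for SLC30A8, SLC39A4, SLC39A14, MT1A, MT1E, MT1F, MT1G or MT1M). Of the 25, 13 held at least 1 match in the window of any of their starts, among them 10 of 21 transporters. The shares of all windows count each window singly, so members with several starts are not on a like footing with them. SLC39A1, SLC39A8 and SLC39A13 held a match at only 1 of their starts. The GATA motif, searched as AGATAA and TGATAA on both strands, was found in 1 of the 25, SLC39A10, against 14.6% of all windows. These are matches of letters in a short window, and a gene without a match may be bound elsewhere.

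The ligand libraries held 38894876 to 59985287 estimated counts, and the siRNA libraries, which were deposited as RPKM (reads per kilobase of gene, scaled to the size of the library), ranged in relative depth from 0.835 to 1.09 of the first siControl vehicle library. GATA2, the siRNA target, was at 83.8, 77.03 and 86.1 RPKM in siControl vehicle cells, 54.3, 53.4 and 46.6 in siGATA2 vehicle cells, 128, 132 and 128 in siControl enzalutamide cells and 60.1, 64.7 and 61.5 in siGATA2 enzalutamide cells, so that the knockdown left much of the transcript and enzalutamide raised it in siControl cells. In the ligand experiment, where CPM are estimated counts scaled to library size, GATA2 was instead lower under enzalutamide, at 223 and 237 CPM in vehicle, 184 and 167 after 4 h and 201 and 203 after 24 h (-0.19 ± 0.046 at 24 h by edgeR, adjusted p = 0.00619). The 9 luminal prostate markers checked were detected in both experiments, their summed level falling from 1487 to 1566 RPKM in siControl vehicle cells to between 864 and 932 under enzalutamide and to between 747 and 794 in siGATA2 cells. In the ligand experiment that sum was 4024 to 4089 CPM in vehicle, 5497 to 5509 after 4 h and 6371 to 6438 after 24 h of DHT, and 3822 to 3928 under enzalutamide. Of 8 markers of basal, neuroendocrine, stromal, endothelial and immune cells, COL1A1 led the sum, which was 10.1 to 11.1 RPKM in siControl vehicle cells and 13.2 to 16.7 in siGATA2 vehicle cells, and 24.7 to 25.3 CPM in vehicle cells and 16.6 to 17.9 after DHT for 24 h. The part of these shifts in the results for zinc genes was not tested. The 5 ligand conditions were spread unevenly over 3 sets named in the column headers (header sets). The headers do not say what separates these sets. Log2 ratios to the vehicle of the same set (within-set ratios) are given for the metallothioneins and for many of the transporters. The vehicle of the second and the third set is 1 run of replicate 1. Ratios to it carry no error and leave out vehicle replicate 2, so they cannot separate header set from vehicle replicate.

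In siControl vehicle cells, 3 members stood clearly above the rest in RPKM, which allows levels to be compared between genes. SLC30A4 (ZnT4), a vesicular exporter, was highest at 73.2 ± 1.65 RPKM (SD, n = 3), above every value of MT2A at 63.8 ± 3.61 RPKM. SLC39A6 (ZIP6), a plasma membrane importer, followed at 59.4 ± 1.52 RPKM and overlapped with MT2A. SLC30A9, a mitochondrial zinc transporter, and SLC39A1 were at 40.2 ± 2.16 and 39.3 ± 0.935 RPKM and overlapped with each other, and SLC39A9 was below both at 31.7 ± 0.537 RPKM. SLC39A14 and SLC39A8, which carry zinc, iron and manganese, did not differ beyond their spread at 26.7 ± 0.59 and 26.3 ± 0.619 RPKM. MT1X, the second metallothionein, was at 23.7 ± 1.38 RPKM, and MT1F and MT1G were at 6.29 ± 0.468 and 3.87 ± 0.631 RPKM. SLC30A1 (ZnT1), the exporter of the plasma membrane, was at 7.81 ± 0.251 RPKM and MTF1 at 6.06 ± 0.0228 RPKM.

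**Figure D1:**
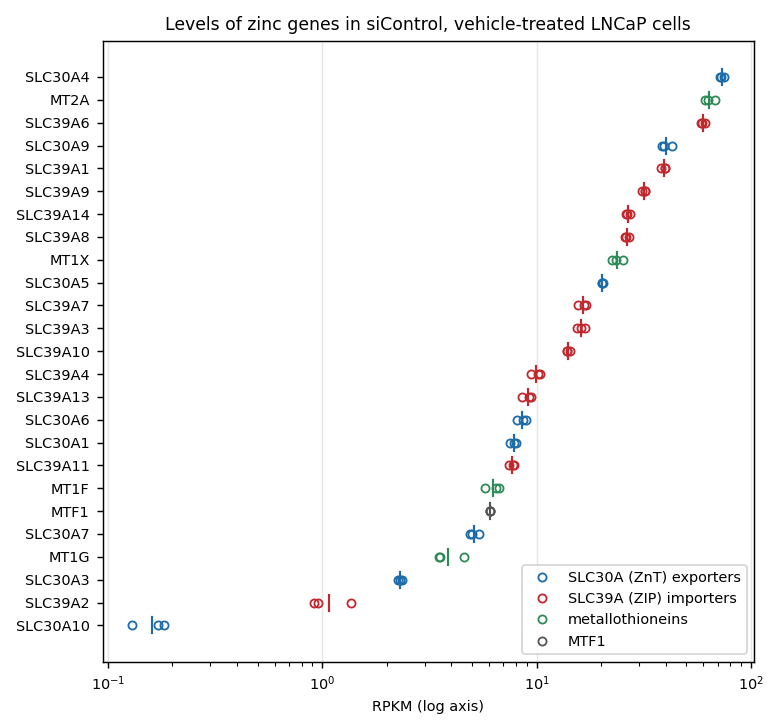
RPKM on a log axis in the 3 siControl vehicle libraries (circles) with their mean (bars) for the members with a mean of at least 0.1 RPKM in these cells, coloured by family. SLC30A4, MT2A and SLC39A6 lie between 58.2 and 75.1 RPKM, and SLC30A10 and SLC39A2 are the lowest shown.

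Several members were close to absent. MT1M was listed in no table, MT1A in no ligand table and in 1 siRNA library above 0, MT1H in the ligand tables only, with 1.03 estimated counts over all 10 libraries, and MT1E with 4 estimated counts over all 10 libraries. SLC30A2, SLC30A8, SLC39A2, SLC39A5 and SLC39A12 had 5 to 30 estimated counts over the 10 ligand libraries, and SLC39A12 was not listed in the vehicle table. That left 24 members tested in the ligand experiment and 29 in the siRNA experiment, the latter including SLC30A2, SLC30A8, SLC39A5 and SLC39A12 at means under 0.1 RPKM, where the pseudocount of 0.1 sets most of the value. SLC39A2 differed between the experiments, since it was detected at 1.08 ± 0.251 RPKM in siControl vehicle cells but with 0 to 0.165 CPM in the ligand libraries. Beside the members, the metallothionein symbols MT1DP and MT3 were listed at means of 0.969 and 1.21 RPKM.

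DHT for 24 h raised most of the SLC39A importers that were tested and lowered the exporters SLC30A4 and SLC30A10. With edgeR's quasi-likelihood test and a Benjamini-Hochberg adjusted p below 0.05 as the call, and log2 fold changes given ± SE, 11 of 24 members were higher (against 26.9% of all genes tested) and 6 lower (against 23.2%) after DHT for 24 h than in vehicle. The 11 that rose were 8 of 11 importers and 3 of 8 exporters, and the 6 that fell were 3 exporters, 2 importers and MT2A. The median log2 fold change of the 24 members was 0.12, against 0.00 over all 15555 genes tested. After 4 h, 2 members were higher (4.8% of all genes) and 1 was lower (2.28% of all genes).

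SLC39A10 (ZIP10) and SLC39A6 (ZIP6), closely related importers of the plasma membrane, rose at both times, and further at 24 h than at 4 h. SLC39A10 was at 77.2 and 74.7 CPM in vehicle, 93.03 and 92.4 CPM after 4 h and 127 and 121 CPM after 24 h of DHT, log2 fold changes of 0.29 ± 0.046 (adjusted p = 0.00078) and 0.71 ± 0.046 (adjusted p = 7.2e-09). SLC39A6 was at 279 and 275 CPM in vehicle, 316 and 319 after 4 h and 427 and 406 after 24 h, log2 fold changes of 0.20 ± 0.037 (adjusted p = 0.00248) and 0.59 ± 0.037 (adjusted p = 4.48e-09). None of these groups overlapped. Within header sets the 24 h ratios to vehicle were 0.62 and 0.70 for SLC39A10 and 0.62 and 0.55 for SLC39A6 on the log2 scale. SLC39A4 (ZIP4), the importer known for zinc uptake in the intestine, was at 22.1 and 22.1 CPM in vehicle, 21.6 and 20.8 after 4 h and 32.6 and 33.7 after 24 h, a rise of 0.58 ± 0.056 (adjusted p = 5.18e-07). SLC39A7 (ZIP7), which releases zinc from the endoplasmic reticulum, rose by 0.46 ± 0.035 (adjusted p = 3.58e-08). Of the uptake routes studied in prostate, SLC39A3 and SLC39A1 rose at 24 h, while at 4 h both lay below vehicle without passing. SLC39A3 was at 44.9 and 44.2 CPM in vehicle, 43.1 and 41.3 after 4 h and 57.97 and 60.1 after 24 h, a change at 24 h of 0.40 ± 0.050 (adjusted p = 6.87e-06). SLC39A1 moved less, from 96.7 and 101 CPM in vehicle and 95.2 and 93.8 after 4 h to 114 and 111 after 24 h, a change of 0.19 ± 0.038 (adjusted p = 0.00074). SLC39A9 (ZIP9), described as an androgen-binding membrane protein, was at 220.1 and 212 CPM in vehicle, 215 and 214 after 4 h and 202 and 194 after 24 h, a small change of -0.12 ± 0.040 (adjusted p = 0.0171) that was not called without vehicle replicate 1 (-0.09, adjusted p = 0.142) or DHT 24 h replicate 2 (-0.09, adjusted p = 0.132). SLC39A8 was at 118 and 119 CPM after 4 h and 130.3 and 118 after 24 h, against 117 and 104 in vehicle, and SLC39A11 was at 25.4 and 25.1 and then 28.3 and 27.3 CPM, against 26.4 and 24.9 in vehicle. The calls of SLC39A8 (0.17 ± 0.054), SLC39A13 (-0.33 ± 0.087) and SLC39A14 (0.12 ± 0.039) were lost without vehicle replicate 2 (adjusted p = 0.206, 0.065 and 0.0902), and those of SLC39A8 and SLC39A14 without DHT 24 h replicate 1 (adjusted p = 0.233 and 0.179). With the header set as a term, SLC39A8 and SLC39A13 were not called (0.08 and -0.25, adjusted p = 0.246 and 0.054). The within-set ratios for replicates 1 and 2 were 0.20 and -0.03 for SLC39A8, -0.21 and -0.29 for SLC39A13 and 0.17 and 0.05 for SLC39A14.

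Among the exporters, SLC30A4 and SLC30A10 fell under DHT and SLC30A1 rose. SLC30A4 was at 870.2 and 839.8 CPM in vehicle, 867 and 855 after 4 h and 596 and 578 after 24 h of DHT, so that the 4 h group overlapped with vehicle and the 24 h group lay far below, at a log2 fold change of -0.54 ± 0.038 (adjusted p = 1.54e-08) and within-set ratios of -0.57 and -0.58. SLC30A10, which is known as a manganese exporter, was already lower at 4 h: 4.87 and 4.32 CPM in vehicle, 2.79 and 2.44 after 4 h and 2.71 and 2.17 after 24 h, log2 fold changes of -0.82 ± 0.13 (adjusted p = 0.000712) and -0.91 ± 0.14 (adjusted p = 4.97e-05). The level of SLC30A10 was low and its DHT libraries did not overlap with vehicle at either time. Its within-set ratios were -0.73 at 4 h and -1.12 and -1.07 at 24 h. SLC30A1 was at 14.8 and 13.1 CPM in vehicle, 14.1 and 13.6 after 4 h and 17.2 and 17.1 after 24 h, a rise of 0.29 ± 0.069 (adjusted p = 0.00288). SLC30A6, which pairs with ZnT5 in the secretory pathway, was at 55.7 and 56.5 CPM in vehicle, 59.6 and 60.7 after 4 h and 70.3 and 66.6 after 24 h, a rise of 0.29 ± 0.050 (adjusted p = 0.000197). SLC30A7, which works in the Golgi, rose by 0.32 ± 0.070 (adjusted p = 0.0014). The within-set ratios were 0.16 and 0.35 for SLC30A1 and 0.31 and 0.13 for SLC30A7. SLC30A1, SLC30A6 and SLC30A7 thus rose at 24 h, with no overlap with vehicle. SLC30A3, the exporter of synaptic vesicles, was near the limit of detection at 0.958 and 0.558 CPM in vehicle, 0.679 and 0.669 after 4 h and 0.476 and 0.408 after 24 h, and its change of -0.82 ± 0.29 (adjusted p = 0.0298) rested on vehicle replicate 1, without which it was -0.32 (adjusted p = 0.53). It was not called without either DHT 24 h library (adjusted p = 0.078 and 0.119) or by DESeq2 (adjusted p = 0.181).

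Of the 4 metallothioneins tested, MT2A was called after 24 h of DHT, and narrowly. MT2A, the most abundant, was at 20.4 and 23.9 CPM in vehicle, 20.3 and 21.5 after 4 h and 18.1 and 19.04 after 24 h, a change at 24 h of -0.25 ± 0.075 (adjusted p = 0.0136). It was not called without vehicle replicate 2 (-0.13, adjusted p = 0.171) or without DHT 24 h replicate 1 (-0.21, adjusted p = 0.103). Nor was it called with the header set as a term (-0.13, adjusted p = 0.211). MT1F was at 2.03 and 2.97 CPM in vehicle, 2.73 and 2.81 after 4 h and 1.903 and 1.63 after 24 h, and its value at 24 h, -0.46 ± 0.19, did not pass (adjusted p = 0.0612). MT1X was at 8.49 and 9.98 CPM in vehicle, 11.1 and 10.5 after 4 h and 9.696 and 10.3 after 24 h, and was not called at 24 h (adjusted p = 0.295). MT1G was at 6.66 and 8.61 CPM in vehicle, 7.24 and 7.58 after 4 h and 6.29 and 6.53 after 24 h, where both libraries lay below vehicle without passing (adjusted p = 0.0808). Within sets the ratios for replicates 1 and 2 were -0.09 and -0.16 for MT2A, -0.16 and -0.05 for MT1F, 0.18 and 0.27 for MT1X and -0.03 and 0.01 for MT1G. By these ratios MT2A, MT1F and MT1G lay nearer to vehicle than in the comparison over all sets. The ratios leave out vehicle replicate 2, which was the higher one for each of these genes. MTF1 was at 47.9 and 45.9 CPM in vehicle, 46.6 and 46.7 after 4 h and 51.7 and 50.2 after 24 h (24 h log2 fold change 0.12 ± 0.048, adjusted p = 0.0545).

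Enzalutamide at 10 μM lowered SLC39A8 and raised SLC30A4, SLC39A11 and SLC39A13 after 24 h, whereas 1 member was called after 4 h. At 4 h, 1 member was higher (7.05% of all genes) and 0 were lower (6.88% of all genes) by edgeR, and 7 and 2 at an unadjusted p below 0.05. DESeq2 gave the same count of 1. That member was SLC39A14, at 0.18 ± 0.039 (adjusted p = 0.00575), which was not called without vehicle replicate 2 (0.16, adjusted p = 0.0547), while without enzalutamide 4 h replicate 1 there were 6 calls. At 24 h, 9 members were higher (16.5% of all genes) and 2 lower (17.1% of all genes), and the median log2 fold change was 0.03 over the members and 0.01 over all genes. These values share their vehicle libraries with the DHT comparisons.

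SLC39A8 (ZIP8) was at 117 and 104 CPM in vehicle, 98.5 and 100 after 4 h and 76.6 and 77.2 after 24 h of enzalutamide. All 4 enzalutamide libraries lay below both vehicle libraries, and the change was -0.16 ± 0.054 at 4 h (adjusted p = 0.0702) and -0.52 ± 0.055 (adjusted p = 2.59e-06) at 24 h, with a within-set ratio of -0.65. SLC30A4 moved the other way, at 870.2 and 839.8 CPM in vehicle, 888 and 966 after 4 h and 1092 and 1108 after 24 h, a rise at 24 h of 0.36 ± 0.038 (adjusted p = 2.59e-06) and a within-set ratio of 0.34. SLC39A11 (ZIP11) was at 26.4 and 24.9 CPM in vehicle, 27.8 and 27.7 after 4 h and 32.02 and 32.5 after 24 h, a rise of 0.32 ± 0.052 (adjusted p = 0.000209) with a within-set ratio of 0.22. SLC39A13 (ZIP13), which releases zinc from vesicles of the secretory pathway, was at 12.9 and 15.2 CPM in vehicle, 15.9 and 13.8 after 4 h and 17.5 and 17.8 after 24 h, a rise of 0.34 ± 0.082 (adjusted p = 0.00472), with a within-set ratio of 0.39, but not without vehicle replicate 1 (0.21, adjusted p = 0.109).

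MT2A was at 25.96 and 24.03 CPM after 4 h and 26.6 and 26.3 after 24 h of enzalutamide, above both vehicle libraries, a rise at 24 h of 0.27 ± 0.072 (adjusted p = 0.0101). MT1G, at 6.66 and 8.61 CPM in vehicle, was at 9.24 and 9.36 CPM after 4 h and 9.72 and 9.84 CPM after 24 h, a rise at 24 h of 0.38 ± 0.10 (adjusted p = 0.00975). Neither call held without vehicle replicate 1, which left 0.14 for MT2A (adjusted p = 0.206) and 0.17 for MT1G (adjusted p = 0.209), nor without either enzalutamide 24 h library (adjusted p between 0.0551 and 0.0735). MT1X was at 10.96 and 9.87 CPM after 4 h and 8.34 and 7.603 after 24 h, below both vehicle libraries at 24 h (-0.20 ± 0.095, adjusted p = 0.121). MT2A and MT1X thus lay on opposite sides of vehicle at 24 h. MT1F was at 3.55 and 2.76 CPM after 4 h and 2.52 and 2.26 after 24 h (-0.03 ± 0.18 at 24 h, adjusted p = 0.91). Within sets the ratios were 0.38 at 4 h and 0.31 at 24 h for MT2A, 0.54 and 0.59 for MT1G, 0.29 and -0.10 for MT1X and 0.58 and 0.50 for MT1F. These ratios leave out vehicle replicate 2, which was above vehicle replicate 1 for each of these genes. MT1F, near 0 at 24 h over all sets, thus lay above vehicle replicate 1 alone at both times. MTF1 was at 49.9 and 53.5 CPM after 4 h and 47.9 and 48.3 after 24 h (0.04 ± 0.048 at 24 h, adjusted p = 0.621).

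The uptake routes SLC39A1 and SLC39A3, the abundant SLC39A6 and SLC39A9 and the exporter SLC30A1 were not called under enzalutamide. SLC39A1 was at 95.1 and 93.2 CPM after 4 h and 92.6 and 91.9 after 24 h, below vehicle in all 4 libraries (adjusted p at 24 h = 0.0653). SLC39A3 was at 44.9 and 42.9 CPM and then 47.2 and 44.3 CPM (adjusted p = 0.62). SLC39A9 was at 215 and 229.8 CPM and then 212 and 215 CPM (adjusted p = 0.765). Both genes overlapped with vehicle at each time. SLC39A6 was at 269.8 and 284 CPM after 4 h and 277 and 285 after 24 h (adjusted p = 0.721), and SLC30A1 was at 15.4 and 15.6 CPM after 4 h and 14.3 and 13.7 after 24 h (adjusted p = 0.958). SLC30A10 was at 5.67 and 6.1 CPM after 4 h and 5.699 and 6.21 after 24 h, above both vehicle libraries (0.37 ± 0.12 at 24 h, adjusted p = 0.0297). Its within-set ratios were 0.00 at 4 h and 0.39 at 24 h, and it was not called by DESeq2 (adjusted p = 0.141) or without either enzalutamide 24 h library or vehicle replicate 2 (adjusted p between 0.0704 and 0.217). SLC30A6 was at 57.4 and 63.2 CPM after 4 h and 53.7 and 54.2 after 24 h (-0.06 ± 0.051, adjusted p = 0.437), and SLC30A3 was at 0.706 and 0.932 and then 0.749 and 0.706 CPM (adjusted p = 0.781). The 24 h values of SLC39A4 and SLC39A10 were 20.1 and 19.3 CPM and 81.4 and 84.6 CPM, on opposite sides of vehicle. The calls of SLC30A7, SLC39A4, SLC39A10 and SLC39A14 at 24 h, with log2 fold changes of 0.25 ± 0.069, -0.17 ± 0.058, 0.13 ± 0.047 and 0.11 ± 0.038, were lost without vehicle replicate 2 (adjusted p = 0.137, 0.0787, 0.264 and 0.251) and without each enzalutamide 24 h library. Those of SLC39A4, SLC39A10 and SLC39A14 were also lost without vehicle replicate 1 (adjusted p = 0.0973, 0.0993 and 0.107) and with DESeq2 (adjusted p = 0.0758, 0.139 and 0.153). With the header set as a term, SLC30A7, SLC30A10, SLC39A10 and SLC39A14 were not called (adjusted p = 0.144, 0.0722, 0.0796 and 0.112). The within-set ratios of SLC30A7, SLC39A10 and SLC39A14 were 0.12, 0.16 and 0.07.

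**Figure D2:**
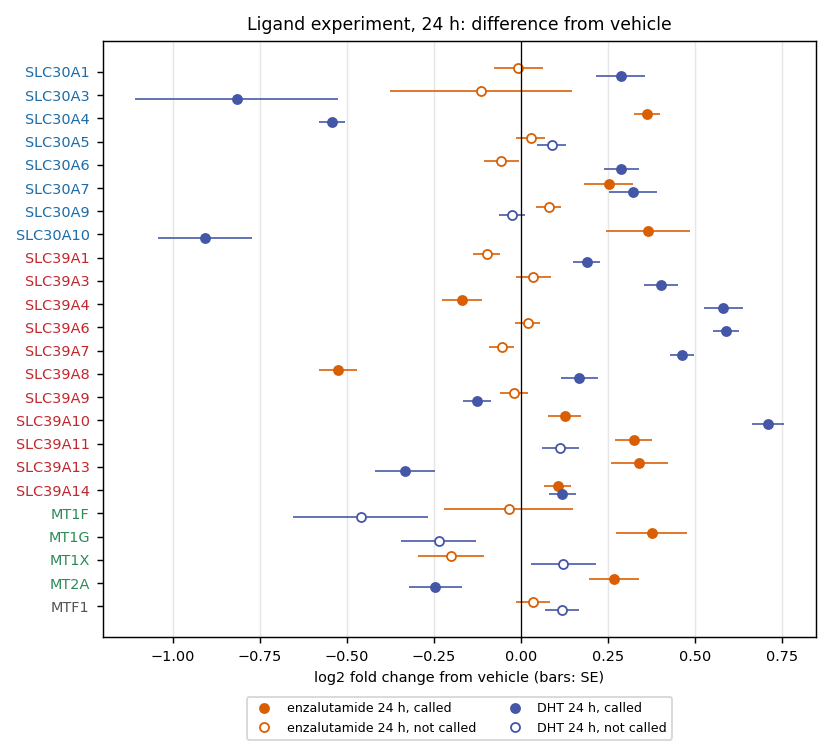
Log2 fold change from vehicle for the 24 members tested, after 24 h of 10 μM enzalutamide (orange) or 10 nM DHT (blue), with SE bars. Filled circles passed an adjusted p below 0.05. Of the members called for both compounds, SLC30A4, SLC30A10, SLC39A4, SLC39A8, SLC39A13 and MT2A lie on opposite sides of 0. SLC39A3, SLC39A6 and SLC39A7 lie to the right for DHT with enzalutamide near 0.

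The direct contrast of DHT with enzalutamide sets the libraries of one compound against those of the other, and the vehicle libraries enter it through the shared estimates of spread and scaling. At 24 h, 10 members were higher under DHT (31.3% of all genes) and 9 were lower (33.6% of all genes), and at 4 h 3 were higher (8.62% of all genes) and 5 lower (7.49% of all genes). At 24 h the largest differences were those of SLC30A10, at -1.27 ± 0.13 (adjusted p = 5.77e-07), and SLC30A4, at -0.91 ± 0.038 (adjusted p = 1.31e-11), which put the DHT levels at 0.414 and 0.534 of the enzalutamide levels. SLC39A4, SLC39A8, SLC39A10, SLC39A6 and SLC39A7 were higher under DHT by 0.75 ± 0.057, 0.69 ± 0.055, 0.58 ± 0.046, 0.57 ± 0.037 and 0.52 ± 0.035 on the log2 scale, with adjusted p of at most 2.49e-08. SLC39A13 was lower under DHT, at -0.67 ± 0.084 (adjusted p = 4.55e-06). SLC39A3, SLC30A6, SLC30A1 and SLC39A1 were also higher under DHT, by 0.37 ± 0.049, 0.34 ± 0.050, 0.29 ± 0.069 and 0.29 ± 0.038 (adjusted p of at most 0.00166), and SLC39A11 was lower at -0.21 ± 0.052 (adjusted p = 0.00235). Small or low differences were called for SLC30A9, SLC39A9 and SLC30A3 at -0.10 ± 0.036, -0.11 ± 0.040 and -0.70 ± 0.30 (adjusted p = 0.019, 0.0293 and 0.0488), but not by DESeq2 (adjusted p = 0.106, 0.138 and 0.234), and SLC39A9 was not called without either vehicle library (adjusted p = 0.052 and 0.0529). Of the metallothioneins, MT1G and MT2A were lower under DHT at -0.61 ± 0.10 (adjusted p = 9.66e-05) and -0.51 ± 0.074 (adjusted p = 1.96e-05), and MT1X was higher at 0.32 ± 0.095 (adjusted p = 0.00752), the latter not without enzalutamide 24 h replicate 2 (0.27, adjusted p = 0.069). SLC30A10 stood apart at 4 h already, at -1.17 ± 0.13 (adjusted p = 1.08e-05). SLC39A10, SLC39A8 and SLC39A6 were higher under DHT at 4 h by 0.35 ± 0.047, 0.26 ± 0.054 and 0.20 ± 0.037, and SLC39A14 was lower at -0.29 ± 0.038 (adjusted p of at most 0.00389). MT1G, MT2A and MTF1 were also called lower under DHT at 4 h (-0.33 ± 0.10, -0.25 ± 0.073 and -0.15 ± 0.048), but not without either DHT 4 h library or by DESeq2 (adjusted p between 0.0566 and 0.237), and MTF1 was not called without either vehicle library (adjusted p = 0.06 and 0.0603). The doses of the compounds differ, and so do their header sets, wholly at 4 h and for DHT replicate 1 at 24 h. The contrast therefore compares these conditions and not equal doses.

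Between 4 h and 24 h of the same compound, DHT raised 12 members (26.5% of all genes) and lowered 5 (23.7% of all genes), and enzalutamide raised 4 (12% of all genes) and lowered 3 (13.1% of all genes). Under DHT, SLC39A4, SLC39A7, SLC39A3 and SLC39A10 were higher at 24 h than at 4 h by 0.64 ± 0.056, 0.50 ± 0.035, 0.48 ± 0.049 and 0.42 ± 0.046 on the log2 scale, and SLC30A4 changed by -0.55 ± 0.038 (adjusted p of at most 1.94e-06). Under enzalutamide, SLC39A8 and SLC30A4 moved further from vehicle, by -0.37 ± 0.055 and 0.25 ± 0.038 (adjusted p = 0.000164 and 0.000209). MT1X, whose mean lay above vehicle at 4 h and below it at 24 h, differed between the times by -0.38 ± 0.094 (adjusted p = 0.00768), a change that was not called without enzalutamide 24 h replicate 2 (-0.32, adjusted p = 0.0876). The times lie in different header sets. With the set as a term 10 calls were made for DHT and 3 for enzalutamide, the latter being SLC39A8, SLC30A4 and SLC39A10. The DHT calls of SLC39A4, SLC39A7, SLC39A3, SLC39A10 and SLC30A4 were made with that term too.

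**Figure D3:**
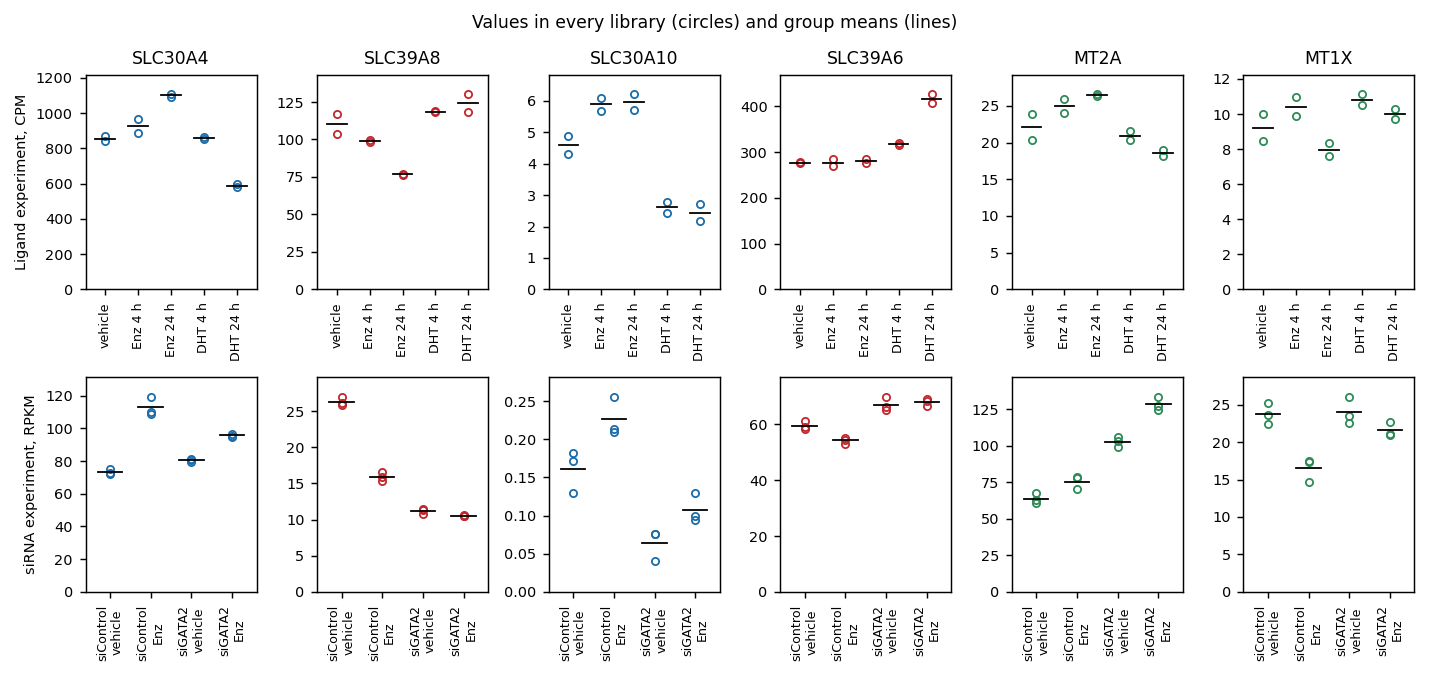
Values of 6 members in every library (circles) with group means (lines), as CPM in the ligand experiment (top) and RPKM in the siRNA experiment (bottom), from 0 on linear axes. In both experiments SLC30A4 and MT2A are higher and SLC39A8 lower after 24 h of enzalutamide than in the matching vehicle cells, and siGATA2 cells have low SLC39A8 and high MT2A.

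In siControl cells, 25 μM enzalutamide for 24 h raised SLC30A4, MT1G and MT2A and lowered SLC39A8, MT1X and SLC39A2. The libraries and controls are other ones than in the ligand experiment, and the dose is higher. With limma on log2(RPKM + 0.1), a scale that understates changes of genes near 0.1 RPKM, 8 of 29 members were higher (17.8% of all genes) and 7 lower (24.4% of all genes). Over all genes 42.3% of the calls were higher, or 54% with each library centred on its median. The members had a median log2 difference of 0.04, against -0.02 over all 20369 genes tested. Of the 24 members tested in both experiments, 17 had the same sign, and the log2 fold changes had a Pearson r of 0.82 across these 24 genes, which are not independent. Called in both were 7 members, each in the same direction: SLC30A4, SLC39A10, SLC39A11, SLC39A13, MT1G and MT2A higher and SLC39A8 lower. In the ligand experiment the calls of SLC30A4, SLC39A8 and SLC39A11 held under all 17 alternative settings. There the call of SLC39A10 was lost under 14 of them, those of MT1G and MT2A under 3 each and that of SLC39A13 under 1. These 7 are 63.6% of the 11 called in the ligand experiment and 53.8% of the 13 called in the siRNA experiment among the 24. The experiments differ in dose, transfection, number of libraries, measure and test. In the ligand experiment 16.5% of all genes were called higher and 17.1% lower. The agreement of signs, the correlation and the shared calls were not computed over all genes. Whether the members agree more than other genes was not tested.

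SLC30A4 was at 72.1, 75.1 and 72.5 RPKM in siControl vehicle cells and 110.0, 109 and 119.5 RPKM under enzalutamide, a rise of 0.62 ± 0.035 (adjusted p = 7.34e-08). SLC39A8 was at 25.9, 27.04 and 26.1 RPKM in vehicle and 16.6, 15.4 and 15.9 RPKM under enzalutamide, a change of -0.72 ± 0.036 (adjusted p = 3.05e-08). SLC39A11 was at 7.85, 7.4 and 7.78 RPKM in vehicle and 8.901, 9.15 and 9.18 RPKM under enzalutamide, a rise of 0.24 ± 0.048 (adjusted p = 0.00159). None of these groups overlapped. SLC30A6 and SLC39A2 fell as well. SLC30A6 was at 8.64, 8.93 and 8.099 RPKM in vehicle and 6.31, 6.099 and 6.57 RPKM under enzalutamide, -0.43 ± 0.054 (adjusted p = 5.25e-05). In the ligand experiment its change under enzalutamide at 24 h was -0.06 ± 0.051 and not called. SLC39A2, low throughout, was at 0.912, 0.956 and 1.37 RPKM in vehicle and 0.573, 0.4998 and 0.472 RPKM under enzalutamide, -0.92 ± 0.13 (adjusted p = 0.00015). Smaller changes of SLC39A6 and SLC30A1 depended on the scaling. SLC39A6 was at 58.2, 61.1 and 58.9 RPKM in vehicle and 54.5, 53.2 and 55.1 RPKM under enzalutamide, -0.13 ± 0.033 (adjusted p = 0.00746), and with each library centred on its median the change was -0.08 and did not pass (adjusted p = 0.0746). SLC30A1 was at 7.54, 8.04 and 7.86 RPKM in vehicle and 7.47, 6.801 and 7.21 RPKM under enzalutamide, -0.12 ± 0.040 (adjusted p = 0.0246), and was likewise not called when the libraries were centred (-0.07, adjusted p = 0.164), nor without siControl vehicle replicate 2 or 3 or siControl enzalutamide replicate 2 (adjusted p = 0.0827, 0.0637 and 0.106).

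The metallothioneins split in siControl cells: MT2A and MT1G rose while MT1X fell. MT2A was at 67.8, 60.8 and 62.7 RPKM in vehicle and 77.8, 78.4 and 70.3 under enzalutamide, a rise of 0.24 ± 0.052 (adjusted p = 0.00248). MT1G was at 4.596, 3.52 and 3.49 RPKM in vehicle and 5.65, 6.801 and 6.02 RPKM under enzalutamide, a rise of 0.66 ± 0.13 (adjusted p = 0.00121). MT1X was at 25.2, 22.4 and 23.6 RPKM in vehicle and 17.5, 17.4 and 14.7 RPKM under enzalutamide, a change of -0.52 ± 0.075 (adjusted p = 0.000139), and none of these 3 pairs of groups overlapped. MT1F was at 6.44, 5.76 and 6.66 RPKM in vehicle and 6.97, 6.803 and 5.96 RPKM under enzalutamide, 0.06 ± 0.10, which did not pass (adjusted p = 0.677). MTF1 itself was at 6.08, 6.04 and 6.06 RPKM in vehicle and 5.21, 5.54 and 5.04 RPKM under enzalutamide, a change of -0.20 ± 0.039 (adjusted p = 0.00123). The uptake routes were not called: SLC39A1 was at 39.9, 38.2 and 39.8 RPKM in vehicle and 38.95, 38.5 and 35.8 under enzalutamide (adjusted p = 0.253). SLC39A3 was at 16.1, 15.4 and 16.9 RPKM in vehicle and 17.9, 17.2 and 16.8 under enzalutamide (adjusted p = 0.0665). SLC39A9 was at 32.1, 31.99 and 31.1 RPKM in vehicle and 31.4, 31.9 and 32.5 under enzalutamide (adjusted p = 0.852). SLC30A10, which DHT and enzalutamide had moved apart in the ligand experiment, was above vehicle in all 3 libraries without passing, at 0.172, 0.1296 and 0.182 RPKM in vehicle and 0.209, 0.256 and 0.213 under enzalutamide (adjusted p = 0.0549). SLC30A3 was at 2.35, 2.26 and 2.31 RPKM in vehicle and 2.39, 2.01 and 2.03 under enzalutamide (adjusted p = 0.356). SLC30A5, the partner of SLC30A6, rose by 0.11 ± 0.031 (adjusted p = 0.0141), and SLC39A10 by 0.18 ± 0.039 (adjusted p = 0.00318). The calls of SLC39A13 (0.22 ± 0.059) and SLC30A2 (0.41 ± 0.13) were lost without siControl enzalutamide replicate 2 (adjusted p = 0.0519 and 0.107), and that of SLC30A2 also without siControl vehicle replicate 3 or siControl enzalutamide replicate 3 (adjusted p = 0.107 and 0.0702).

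Knockdown of GATA2, a zinc-finger transcription factor that acts with the androgen receptor in prostate cells, lowered SLC39A8, SLC39A3 and SLC30A6 and raised SLC39A9, MT2A, SLC30A9 and MTF1. In vehicle, 10 of 29 members were higher in siGATA2 than in siControl cells (24.3% of all genes) and 10 were lower (31.5% of all genes), and the median log2 difference was -0.06 over the members and -0.03 over all genes. By family, 7 of 14 importers fell and 3 rose, 4 of 10 exporters rose and 3 fell, and 2 of the 4 metallothioneins tested rose. Under enzalutamide, 10 members were higher (26.4% of all genes) and 11 lower (28.3% of all genes). The 2 comparisons use different libraries.

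SLC39A8 fell furthest, from 25.9, 27.04 and 26.1 RPKM in siControl vehicle cells to 11.5, 10.8 and 11.4 RPKM in siGATA2 vehicle cells, a difference of -1.22 ± 0.036 (adjusted p = 1.17e-10) or a factor of 0.429. Under enzalutamide the siControl cells were at 16.6, 15.4 and 15.9 and the siGATA2 cells at 10.6, 10.4 and 10.6 RPKM, -0.59 ± 0.036 (adjusted p = 4.05e-08). SLC39A3 was at 9.78, 9.797 and 9.54 RPKM in siGATA2 vehicle cells and 9.65, 9.64 and 9.05 under enzalutamide, below each siControl library, -0.73 ± 0.041 (adjusted p = 2.05e-08) and -0.87 ± 0.041 (adjusted p = 4.77e-09). SLC39A8 and SLC39A3 were thus lower in both treatments, with no overlap. SLC39A11 was at 5.08, 5.61 and 5.72 RPKM in siGATA2 vehicle cells and 5.34, 5.64 and 5.302 RPKM in siGATA2 enzalutamide cells, -0.48 ± 0.048 (adjusted p = 3.01e-06) and -0.73 ± 0.048 (adjusted p = 7.81e-08). SLC39A14 changed by -0.41 ± 0.038 in vehicle and -0.47 ± 0.038 under enzalutamide (adjusted p = 1.78e-06 and 5e-07). SLC30A6 was at 5.498, 5.38 and 5.53 RPKM in siGATA2 vehicle cells and 5.87, 5.098 and 5.43 RPKM in siGATA2 enzalutamide cells, -0.63 ± 0.054 (adjusted p = 7.6e-07) and -0.21 ± 0.054 (adjusted p = 0.00547). Of the exporters, SLC30A6 fell more in vehicle than under enzalutamide. SLC30A10, below 0.3 RPKM throughout, was at 0.0403, 0.0755 and 0.07599 RPKM in siGATA2 vehicle cells and 0.0991, 0.1295 and 0.0944 RPKM in siGATA2 enzalutamide cells, -0.67 ± 0.12 (adjusted p = 0.000518) and -0.65 ± 0.12 (adjusted p = 0.000665). SLC30A3 was at 1.92, 1.97 and 1.696 RPKM in siGATA2 vehicle cells and 1.87, 2.16 and 1.83 RPKM in siGATA2 enzalutamide cells, -0.30 ± 0.083 (adjusted p = 0.00918) in vehicle. SLC39A7 was lower in both treatments, at -0.17 ± 0.046 (adjusted p = 0.00762) and -0.18 ± 0.046 (adjusted p = 0.00485), the former not when the libraries were centred on their medians (-0.09, adjusted p = 0.0964). SLC39A13 was lower under enzalutamide at -0.21 ± 0.059 (adjusted p = 0.00963).

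The importers SLC39A9 and SLC39A6 and several exporters were higher in siGATA2 cells. SLC39A9 was at 51.2, 51.6 and 53.4 RPKM in vehicle and 53.9, 52.3 and 52.96 under enzalutamide, 0.71 ± 0.028 (adjusted p = 1.11e-09) and 0.73 ± 0.028 (adjusted p = 8.8e-10), with the 6 siGATA2 libraries above the 6 siControl libraries. SLC39A6 was at 64.99, 66.2 and 70.0 RPKM in siGATA2 vehicle cells and 68.4, 66.8 and 69.2 RPKM in siGATA2 enzalutamide cells, 0.17 ± 0.033 (adjusted p = 0.000758) and 0.33 ± 0.033 (adjusted p = 3.99e-06). SLC30A1 was at 10.2, 10.04 and 10.3 RPKM in siGATA2 vehicle cells and 10.2, 10.3 and 9.96 RPKM in siGATA2 enzalutamide cells, 0.38 ± 0.040 (adjusted p = 4.84e-06) and 0.50 ± 0.040 (adjusted p = 4.37e-07). SLC30A1 thus rose in both treatments, and SLC30A9 and SLC30A5 did so too. SLC30A9 rose by 0.46 ± 0.040 and 0.49 ± 0.040, and SLC30A5 by 0.27 ± 0.031 and 0.23 ± 0.031 (adjusted p of at most 4.67e-05). SLC30A4 turned with the treatment, slightly higher in vehicle at 81.5, 80.4 and 79.5 RPKM (0.14 ± 0.035, adjusted p = 0.00532) and lower under enzalutamide at 96.5, 94.9 and 95.6 RPKM (-0.24 ± 0.035, adjusted p = 8.9e-05). Of the other uptake routes, SLC39A1 was not called, and SLC39A2 changed in opposite directions in the 2 treatments. SLC39A1 was at 36.5, 38.7 and 35.9 RPKM in siGATA2 vehicle cells and 36.3, 36.6 and 36 RPKM in siGATA2 enzalutamide cells and was not called (adjusted p = 0.0761 and 0.259). SLC39A2 was at 0.7197, 0.821 and 0.659 RPKM in siGATA2 vehicle cells and 0.762, 0.711 and 0.751 RPKM in siGATA2 enzalutamide cells, lower than siControl in vehicle (-0.48 ± 0.13, adjusted p = 0.00778) and higher under enzalutamide (0.45 ± 0.13, adjusted p = 0.0114). SLC39A10 was at 13.9, 14.3 and 13.8 RPKM in siControl vehicle cells and 12.9, 12.6 and 12.5 in siGATA2 vehicle cells (-0.15 ± 0.039, adjusted p = 0.00602), and at 15.99, 15.3 and 16.4 and 13.7, 12.5 and 13.5 RPKM under enzalutamide (-0.26 ± 0.039, adjusted p = 9.93e-05).

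The call of SLC39A4 in vehicle (0.15 ± 0.055), whose groups overlapped, was lost without siControl vehicle replicate 1 or 2 or siGATA2 vehicle replicate 1 or 2 (adjusted p = 0.0583, 0.141, 0.0999 and 0.148), and that of SLC30A7 under enzalutamide (0.17 ± 0.053) without siControl enzalutamide replicate 1 or 2 or siGATA2 enzalutamide replicate 1 or 3 (adjusted p = 0.0719, 0.0579, 0.0682 and 0.051).

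Among the buffer genes, MT2A was at 98.9, 103 and 106 RPKM in siGATA2 vehicle cells and 125, 134 and 127 under enzalutamide, each group above its siControl counterpart, 0.69 ± 0.052 (adjusted p = 2.7e-07) and 0.77 ± 0.052 (adjusted p = 1.02e-07). MT1G was at 5.76, 5.72 and 7.77 RPKM in siGATA2 vehicle cells and 7.202, 7.61 and 7.18 RPKM in siGATA2 enzalutamide cells, 0.71 ± 0.13 (adjusted p = 0.00044) in vehicle and 0.25 ± 0.13 under enzalutamide, where it did not pass (adjusted p = 0.119). MT1X was at 23.4, 22.5 and 26.1 RPKM in vehicle, overlapping with siControl (0.02 ± 0.075, adjusted p = 0.892), and at 21.1, 21.0 and 22.7 RPKM under enzalutamide, above siControl by 0.39 ± 0.075 (adjusted p = 0.000728). MT2A and MT1G thus rose in vehicle, while MT1X was not called. MT1F was at 5.83, 5.15 and 5.03 RPKM in siGATA2 vehicle cells and 5.28, 5.93 and 4.35 RPKM in siGATA2 enzalutamide cells, and its fall under enzalutamide, -0.34 ± 0.10 (adjusted p = 0.0141), was not called without siControl enzalutamide replicate 1 (-0.30, adjusted p = 0.0552) or siGATA2 enzalutamide replicate 3 (-0.23, adjusted p = 0.0591). MTF1 was at 7.84, 7.72 and 8.12 RPKM in siGATA2 vehicle cells and 7.89, 7.74 and 7.81 RPKM in siGATA2 enzalutamide cells, 0.38 ± 0.039 (adjusted p = 4.16e-06) and 0.56 ± 0.039 (adjusted p = 1.2e-07).

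**Figure D4:**
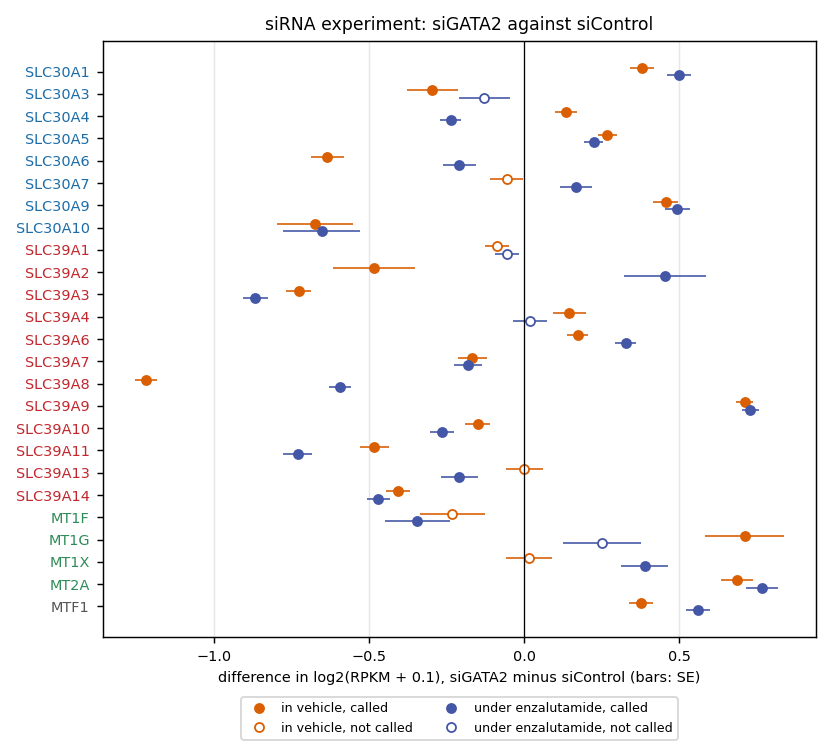
Difference in log2(RPKM + 0.1) between siGATA2 and siControl cells, in vehicle (orange) and under 25 μM enzalutamide (blue), with SE bars, for the members with a mean of at least 0.1 RPKM. Filled circles passed an adjusted p below 0.05. SLC39A8 reaches -1.22 in vehicle and -0.59 under enzalutamide, and SLC39A9 and MT2A lie between 0.69 and 0.77 in both.

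Within siGATA2 cells, enzalutamide raised SLC30A4 and MT2A, and no other member was called. That is 2 of 29 higher (0.201% of all genes) and 0 lower (0.167% of all genes) by limma, with 3 higher and 1 lower at an unadjusted p below 0.05. Over all genes 54.7% of the calls were higher, or 66.2% with each library centred on its median. For 23 of the 29 members the difference was smaller in size than in siControl cells. That share was not computed over all genes. Calls over all genes were also fewer than in siControl cells, where 17.8% were higher and 24.4% lower. Whether the members differ from other genes in this was not tested. For the 15 members called in siControl cells the median absolute log2 difference was 0.242 in siControl and 0.063 in siGATA2 cells, a list chosen by the former. SLC30A4 rose by 0.25 ± 0.035 (adjusted p = 0.00992) in siGATA2 cells, but not without siGATA2 enzalutamide replicate 1 (0.24, adjusted p = 0.0668). MT2A rose by 0.32 ± 0.052 (adjusted p = 0.0221), against 0.24 ± 0.052 in siControl cells. The MT2A call was not made with the replicate number as a block (0.32, adjusted p = 0.0672), nor without siGATA2 vehicle replicate 1 or 2 or any of the siGATA2 enzalutamide libraries (adjusted p between 0.07 and 0.103).

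The difference between the responses was tested as the interaction of siGATA2 and enzalutamide, for which 7 members had a higher (15% of all genes) and 3 a lower response in siGATA2 than in siControl cells (11% of all genes). SLC39A8 had the smallest adjusted p, its change of -0.72 ± 0.036 in siControl cells becoming -0.09 ± 0.036 in siGATA2 cells, with an interaction of 0.63 ± 0.051 (adjusted p = 5.83e-06). The rise of SLC30A4 went from 0.62 ± 0.035 to 0.25 ± 0.035 (interaction -0.37 ± 0.049, adjusted p = 0.000233). SLC30A6 went from -0.43 ± 0.054 to 0.00 ± 0.054 (interaction 0.43 ± 0.076, adjusted p = 0.00173), SLC39A2 from -0.92 ± 0.13 to 0.02 ± 0.13 (interaction 0.94 ± 0.19, adjusted p = 0.00338) and SLC39A11 from 0.24 ± 0.048 to -0.01 ± 0.048 (interaction -0.25 ± 0.068, adjusted p = 0.0183). For MT1X the response went from -0.52 ± 0.075 to -0.15 ± 0.075 (interaction 0.37 ± 0.11, adjusted p = 0.0215), not called without siControl vehicle replicate 1, siGATA2 vehicle replicate 2 or siGATA2 enzalutamide replicate 3 (adjusted p = 0.054, 0.0552 and 0.0548). The interactions of MT2A, 0.08 ± 0.073, and MT1G, -0.46 ± 0.18, did not pass (adjusted p = 0.478 and 0.0838). Those of SLC30A2, SLC30A7, SLC39A6 and MTF1 passed narrowly (adjusted p = 0.0328, 0.0463, 0.0323 and 0.0262), and each was lost without at least 7 of the 12 libraries taken singly, with adjusted p up to 0.0798, 0.108, 0.0789 and 0.067. SLC30A2 was under 0.1 RPKM in every library.

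**Figure D5:**
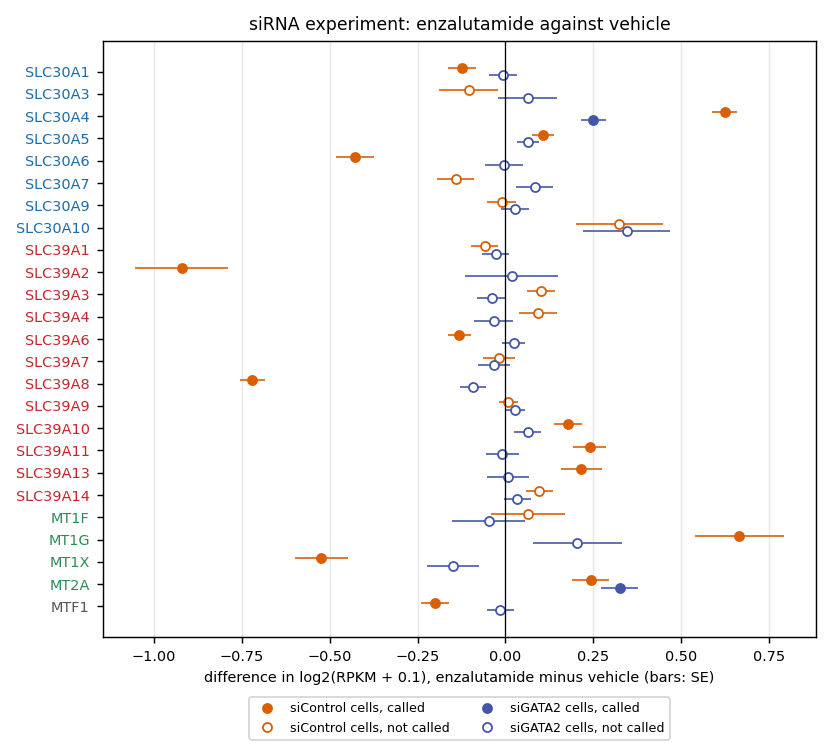
Difference in log2(RPKM + 0.1) between enzalutamide and vehicle in siControl cells (orange) and siGATA2 cells (blue), with SE bars, for the members with a mean of at least 0.1 RPKM. Filled circles passed an adjusted p below 0.05. The siControl points run from -0.92 for SLC39A2 to 0.66 for MT1G, whereas the siGATA2 points lie between -0.15 and 0.34.

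Summed over the listed metallothioneins, the transcript level was 97.7 ± 5.86 RPKM (SD, n = 3) in siControl vehicle cells, 104.7 ± 6.83 under enzalutamide, 138.4 ± 5.72 in siGATA2 vehicle cells and 162.7 ± 5.14 in siGATA2 enzalutamide cells. MT2A made up 65.3 ± 0.361%, 72.1 ± 0.411%, 74.2 ± 1.23% and 79.0 ± 0.402% of these sums in the same order, and MT1X 24.3 ± 0.13%, 15.8 ± 0.563%, 17.3 ± 0.771% and 13.3 ± 0.808%. These genes have related sequences, so some of their reads can be shared: of the stretches of 50 bases in their annotated transcripts, 16.5% in MT1G, 3.37% in MT1X and 3.02% in MT2A also occur in another metallothionein transcript. The estimated counts of MT1G, MT1X and MT2A were whole in 0 of the 8 DHT and enzalutamide libraries and those of MT1F in all 8. Over all genes, 57.1% to 58.7% of the values above 0 were whole in these libraries. Fractions were thus common, and they do not show with which genes reads were shared. The values of MT1G, MT1X and MT2A, their shares of the sum included, are uncertain by any reads that were split among copies. Of these 3 genes, the shared stretches were most frequent in MT1G.

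Of 24 other genes of zinc, copper, iron and metal stress handling, 22 were tested in the ligand experiment and 24 in the siRNA experiment. After 24 h, 10 μM enzalutamide raised 8 (16.5% of all genes) and lowered 5 (17.1%) of the 22, DHT raised 8 (26.9% of all genes) and lowered 5 (23.2%) of the 22, and 25 μM enzalutamide in siControl cells raised 8 (17.8% of all genes) and lowered 4 (24.4%) of the 24. The largest rise under enzalutamide in both experiments was that of HMOX1, heme oxygenase 1, at 5.698 and 5.97 CPM in vehicle and 10.8 and 11.8 CPM at 24 h (0.96 ± 0.096, adjusted p = 1.6e-06), and at 10.9, 9.15 and 11.2 RPKM in siControl vehicle cells and 27.3, 30.4 and 41.8 RPKM under enzalutamide (1.64 ± 0.13, adjusted p = 3.13e-06). SLC31A1, the copper importer, rose by 0.47 ± 0.036 (adjusted p = 8.16e-08) and 0.47 ± 0.036 (adjusted p = 1.07e-06). In siGATA2 cells 0 of the 24 were called under enzalutamide by limma (0.201% of all genes higher and 0.167% lower), with 3 at an unadjusted p below 0.05. HMOX1 was there at 14.4, 15.1 and 15.98 RPKM in vehicle and 15.0, 15.9 and 15.97 under enzalutamide. Under DHT the largest called change of the list was that of ANKH, a transporter of pyrophosphate and citrate, at 56.6 and 57.02 CPM in vehicle and 108 and 106 CPM at 24 h (0.91 ± 0.039, adjusted p = 6.45e-11).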

How the data were processed

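RNA-seq gene tables of LNCaP cells were analysed, for which the submitters' processing notes name hg19, TopHat2 and Partek. The deposited ligand tables hold estimated counts per gene, fractions of reads included, which were rounded here for the tests. The deposited siRNA tables hold RPKM values made by the authors. Their log2 values were taken here after adding 0.1, for genes above 0 in at least 3 libraries. Read depth is known for the estimated counts (38894876 to 59985287 per library) and only as a relative value for RPKM, so the precision of low siRNA values is unknown.

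Of 4 vehicle columns, 3 carry replicate 1 in different sets and differed from each other by less than from replicate 2 (mean chi-square per gene 1.53 to 1.56 against 3.56 to 3.74), so they were summed as repeat runs of 1 sample, which gives n = 2. The sample titles instead number the vehicle samples from 1 to 4, so this sum goes by the column names and not by the titles. The study calls its ligand libraries biological replicates. For the siRNA libraries nothing was found that says they came from separate cultures, so their p-values measure the spread between libraries, which may be technical. Counts were tested with edgeR 4.0.16 (quasi-likelihood, TMM, filterByExpr, all 5 conditions in 1 fit) and RPKM with limma 3.58.1 (all 4 conditions), adjusted over all genes tested. DESeq2 1.42.0 was an alternative. R 4.3.3, Python 3.11.15 and matplotlib 3.10.9 were used. The scripts were tested on simulated data. 

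Deviations from the group means of siControl and siGATA2 enzalutamide libraries with the same replicate number were correlated at 0.113, 0.241 and 0.148. There the block made 21 calls, as did the fit without it. Libraries with unlike numbers were not compared, so these values do not establish pairing. In every other pair of siRNA groups at least 1 replicate had a value below 0. With 2 libraries per ligand condition both replicates give the same value, so these values cannot decide on pairing there. The value was 0.168 between the 2 times of DHT and 0.142 between those of enzalutamide. Between vehicle and the 24 h groups it was 0.118 for DHT and 0.055 for enzalutamide. The other ligand pairs were below 0. The rule for the members goes by symbol and uses no value, but this gene set and the other gene lists were chosen with earlier results of these data known. Values in every library were given for members called with a change of at least 1.5 times against their own controls, the metallothioneins and MTF1 where listed, and SLC39A1, SLC39A2, SLC39A3, SLC39A6, SLC39A9, SLC30A1 and SLC30A4. Other called members were given by their changes. Alternatives were other scalings, filters, pseudocounts, tests, the replicate block and leaving out each library. The header set as a term was chosen after seeing the data, as were the contrasts of 24 h with 4 h.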

Additional observations from a re-analysis of the deposited data

Results flagged for a closer look

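Responses to enzalutamide that differed between siGATA2 and siControl cells, by limma's test of the interaction, were seen for 10 members, 7 with a higher response in siGATA2 cells (15% of all genes) and 3 with a lower one (11% of all genes). The interaction, on the log2 scale and as siGATA2 response minus siControl response, was 0.63 for SLC39A8, -0.37 for SLC30A4, 0.43 for SLC30A6, 0.94 for SLC39A2, -0.25 for SLC39A11, 0.37 for MT1X, 0.19 for MTF1, 0.15 for SLC39A6, 0.22 for SLC30A7 and -0.61 for SLC30A2. SLC30A2 lies at the pseudocount, and MT1X, MTF1, SLC39A6, SLC30A7 and SLC30A2 lost the call when single libraries were left out.

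Responses that differed between 24 h and 4 h of the same compound, by edgeR's test of that difference, were seen for 7 of 24 members under enzalutamide, 4 higher (12% of all genes) and 3 lower (13.1%), and for 17 under DHT, 12 higher (26.5% of all genes) and 5 lower (23.7%). Under enzalutamide the 24 h minus 4 h difference was -0.37 for SLC39A8, 0.25 for SLC30A4, -0.38 for MT1X, 0.19 for SLC39A10, 0.22 for SLC39A11, 0.25 for SLC39A13 and -0.16 for SLC30A6. Under DHT it was 0.64 for SLC39A4, 0.50 for SLC39A7, 0.48 for SLC39A3, 0.42 for SLC39A10, 0.39 for SLC39A6, 0.25 for SLC39A1, 0.23 for SLC39A14 and 0.14 for SLC39A11 among the importers that were higher at 24 h. SLC30A1, SLC30A6 and SLC30A7 were higher by 0.31, 0.19 and 0.17, and MTF1 by 0.13. Lower at 24 h were SLC30A4 at -0.55, MT1F at -0.64, SLC39A13 at -0.31, SLC30A9 at -0.13 and SLC39A9 at -0.11. The times differ in header set, and with the set as a term in the fit 11 of these 24 differences were not called. Under DHT these were MT1F (-0.15, adjusted p = 0.711), SLC39A13 (-0.22, adjusted p = 0.236), SLC30A7 (0.04, adjusted p = 0.817), SLC39A11 (-0.0084, adjusted p = 0.951), MTF1 (adjusted p = 0.339), SLC30A1 (adjusted p = 0.0779) and SLC30A6 (adjusted p = 0.0754). Under enzalutamide they were MT1X (-0.44, adjusted p = 0.0505), SLC30A6 (adjusted p = 0.545), SLC39A11 (adjusted p = 0.0586) and SLC39A13 (adjusted p = 0.314). No group held enough libraries for a check of single outlying libraries.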

How the results depend on the processing

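Of 151 called changes of members over all 13 comparisons, 99 were called under every alternative, 52 were lost under at least 1, and 1 reversed. The latter was SLC39A11 between 24 h and 4 h of DHT, which went to -0.0084 with the header set as a term. Counts of called members that moved by over 1.5 times were as follows. For enzalutamide at 4 h (1 call) there were 6 with no filter and 6 with each vehicle column as a sample, 0 with only the compared groups in the fit and 4 with the set as a term. For enzalutamide at 24 h (11 calls) there were 7 with the set as a term and 7 by DESeq2. DHT at 4 h (3 calls) had 5 with each vehicle column as a sample. DHT against enzalutamide at 4 h (8 calls) had 5 by DESeq2. With the set as a term, 24 h against 4 h had 3 calls for enzalutamide (7 without) and 10 for DHT (17 without). Leaving out 1 library gave 1 to 6 calls for enzalutamide at 4 h, 4 to 12 at 24 h, 5 to 7 for DHT against enzalutamide at 4 h, 2 to 8 for enzalutamide and 11 to 19 for DHT between 24 h and 4 h, 0 to 2 for enzalutamide in siGATA2 cells, and 5 to 10 for the interaction. The cause was not tested. With the replicate number as a block, 1 member rather than 2 was called for enzalutamide in siGATA2 cells and 9 rather than 11 for enzalutamide at 24 h. The interaction had 8 calls rather than 10, and siGATA2 under enzalutamide 21 as before. For the latter the correlations of same-numbered libraries were all above 0, which does not establish pairing. In the other siRNA pairs of groups at least 1 of these correlations was below 0. In the ligand experiment 2 libraries per condition cannot decide on pairing. The block there gave 15 rather than 17 calls for DHT and 6 rather than 7 for enzalutamide between 24 h and 4 h. Depth limits the members under 1 RPKM, whose log2 changes depend on the pseudocount.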
